A study of Homo sapiens with 30 samples.

Results

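The transcription factors FOXM1, MYBL2 (B-MYB), E2F1, E2F2, E2F7 and E2F8, the MuvB subunit LIN9 and the pocket proteins RB1, RBL1 and RBL2 form a set of 10 cell cycle regulators. They were chosen by name, with earlier results of these data known. Of these, 9 were measured as 1 of the 22011 transcript clusters (gene-level features) of an exon array. RBL2 had no cluster to itself and was measured as the median of its 30 probe sets (exon-level features) among 16909 such gene medians. FOXM1 and RB1 were also followed through their 19 and 30 probe sets, out of 287329.

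The cells were T47D, an established luminal breast cancer line that depends on oestrogen for growth. They received 10 nM siRNA against 1 of 4 subunits of the negative elongation factor NELF (siNELF-A, siNELF-B, siNELF-C or siNELF-E) or control siRNA against luciferase, a gene absent from human cells. The medium was changed 48 hours after transfection, the cells were harvested 48 hours after that, and 1 ug of total RNA went onto each Affymetrix human exon array. The groups are also called the A, B, C and E knockdowns after the subunit. Each group held 3 arrays, called technical repeats in the series text, so p-values measure the spread between repeats, and an effect of an siRNA cannot be told apart from a difference between cultures.

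NELF holds RNA polymerase II shortly after it has started a transcript. In the division cycle, unphosphorylated pocket proteins bind E2F factors and hold back their targets. When cyclin-dependent kinases release that brake, E2F1 and E2F2 switch on genes of S phase, among them E2F7 and E2F8, which repress the same promoters in turn. Later in the cycle B-MYB and then FOXM1 join the MuvB complex, which contains LIN9, and activate genes of mitosis; in resting cells MuvB sits with RBL1 or RBL2 in the repressive DREAM complex.

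Several of these regulators are themselves targets of E2F factors, so their promoters were read from RefSeq (build GRCh38.p14), from 250 bases before to 50 bases after the start of transcription. A window was found for 8 members, at the outermost start of the gene for 7. FOXM1 and E2F8 had none. Both strands were searched for the E2F core letters (the run TTTGGCG, the run TTTCCCG, the run TTTGCCG or the run TTTCGCG), for the cell cycle homology region, which MuvB binds (the run TTTGAA or the run TTCGAA), and for the NF-Y box CCAAT. E2F letters stood in 4 of the 7 windows at an outermost start (E2F1, E2F2, LIN9 and RBL1), against 8.67% of 35116 windows over all genes. The homology region letters stood in that of RBL2, against 16.4% of all windows, and CCAAT stood in those of E2F1 and E2F7, against 34.6%. The shares over all genes count every window, those at internal starts included, so they are not matched to windows at an outermost start. A match is a run of letters, not a shown binding site. The windows with at least 2 runs of E2F letters are given 5′ to 3′ on the strand of the gene, with those letters in capitals, because they belong to an activating E2F that was called against control, an activating E2F that was not, and a pocket protein that was.
E2F1: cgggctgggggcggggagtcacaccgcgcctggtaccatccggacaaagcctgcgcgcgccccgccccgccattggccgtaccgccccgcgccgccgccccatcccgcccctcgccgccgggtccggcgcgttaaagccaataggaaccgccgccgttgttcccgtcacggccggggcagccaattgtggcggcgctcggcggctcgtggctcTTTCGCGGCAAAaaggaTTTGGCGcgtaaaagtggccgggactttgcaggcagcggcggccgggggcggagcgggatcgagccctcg
E2F2: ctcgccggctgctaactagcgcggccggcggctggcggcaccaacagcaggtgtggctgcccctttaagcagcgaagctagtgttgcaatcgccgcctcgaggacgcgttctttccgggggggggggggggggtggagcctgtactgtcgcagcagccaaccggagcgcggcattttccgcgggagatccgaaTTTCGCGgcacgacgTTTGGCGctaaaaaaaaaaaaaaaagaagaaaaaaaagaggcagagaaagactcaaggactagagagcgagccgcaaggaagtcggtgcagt
RBL1: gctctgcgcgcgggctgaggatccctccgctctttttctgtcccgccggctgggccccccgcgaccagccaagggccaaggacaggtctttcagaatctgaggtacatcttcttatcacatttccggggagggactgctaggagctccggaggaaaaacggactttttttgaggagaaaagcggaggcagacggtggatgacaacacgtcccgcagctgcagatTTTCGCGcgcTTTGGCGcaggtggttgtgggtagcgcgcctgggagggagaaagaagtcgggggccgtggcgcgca
They lie at chr20:33686336-33686635, chr1:23531184-23531483 and chr20:37095948-37096247, all on the minus strand. Counted from the start of transcription, the runs of E2F1 begin at -37, -32 and -20, where the run at -32 lies on the opposite strand and overlaps the one at -37. Those of E2F2 begin at -57 and -42 and those of RBL1 at -26 and -16. E2F1, E2F2 and RBL1 all carry the same pair on the strand of the gene, TTTCGCG upstream and TTTGGCG downstream.

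The knockdowns were examined at their targets and the arrays at their likeness. NELFCD, which encodes NELF-C, differed from control by -3.42 on the log2 scale in siNELF-C cells (adjusted p = 1.67e-05) and NELFE by -2.61 in siNELF-E cells (2.49e-05), while NELFA differed by -0.61 in siNELF-A cells and did not pass (0.176; limma). NELFB was not analysed here. SiNELF-B replicate 2 had a mean r of 0.9845 to the control arrays but of 0.945 to the other arrays of siNELF-B. SiNELF-B replicate 3 had the narrowest spread of values, with an interquartile range of 3.12 against 3.57 to 4.12 on the other arrays. The median difference of the 10 regulators from control was -0.64, -0.15 and -1.65 on siNELF-B replicates 1, 2 and 3. All groups share 1 estimate of spread for a feature, so scatter among the siNELF-B arrays also enters the SEs, intervals and p-values of the other knockdowns. The SD in siNELF-B was the largest of the groups for every regulator except E2F1 and E2F2, where it was the smallest. Counts are also given without replicates 2 and 3, where siNELF-B is 1 array whose spread is taken from the other groups. Because the regulators changed least on replicate 2, a siNELF-B change that passes without that array follows in part from leaving it out. Luminal markers, 11 of 12 measured, had array medians of 8.54 to 9.47 in the knockdowns and 9.4 to 9.57 in control, with 5, 1, 4 and 1 called lower in the A, B, C and E knockdowns and 1 called higher in siNELF-E. Array medians of the other marker lists were 3.83 to 4.85 in the knockdowns and 4.13 to 4.32 in control for 5 of 6 basal markers, and 3.64 to 4.14 and 3.62 to 3.86 for 6 of 6 mesenchymal ones. They were 1.91 to 2.35 and 1.82 to 2.17 for 5 of 6 leukocyte markers, and 2.48 to 2.87 and 2.36 to 2.60 for 4 of 4 endothelial ones. Of the leukocyte list PTPRC, CD3E and LYZ stayed below 2.697, the 25th percentile of cluster means, on every array, while CD14 (3.46 to 4.76) and CD68 (3.99 to 4.95) lay above it. Of the endothelial list PECAM1 and KDR stayed below it, VWF lay above it (2.97 to 3.51) and CDH5 lay on both sides (2.59 to 3.38). The part of these markers in the results was not tested.

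More of the regulators were called lower in siNELF-C and siNELF-E cells than in siNELF-A and siNELF-B cells. The log2 change was negative for 9, 10, 10 and 10 of them in the A, B, C and E knockdowns. Counts of calls do not compare knockdowns with each other, and the direct tests are given further below. A feature was called at an adjusted p below 0.05 over all features and a change of at least 1.5-fold. Because the regulators and the gene lists below were chosen with earlier results of these data known, the shares beside their counts are no test of enrichment. Called lower were 2 of the 10 in siNELF-A (FOXM1 and MYBL2), against 2.83% of all clusters, and 2 in siNELF-B (LIN9 and RB1), against 4.19%. In siNELF-C the count was 7, against 5.3% of clusters, and in siNELF-E it was 7 as well, against 4.04%. The 7 were the same genes in both, FOXM1, MYBL2, E2F1, E2F7, E2F8, LIN9 and RBL1. In the mean of the 4 knockdowns against control 8 were called lower, those 7 and RB1, against 4.46% of clusters. No regulator was called higher in any of these comparisons, where 0.495%, 0.204%, 0.922% and 1.44% of clusters were in the A, B, C and E knockdowns and 0.35% on average. E2F2 and RBL2 were not called anywhere against control.

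The median log2 change of the 10 was -0.84, -0.82, -1.29 and -1.46 in the A, B, C and E knockdowns, where all clusters had medians of -0.03, -0.14, -0.08 and -0.02. All 3 knockdown arrays lay below all 3 control arrays for 8, 6, 9 and 10 regulators, in the same order. The shares of all clusters with that order were 22.5%, 16.6%, 31.3% and 21.1%. In bulk RNA, fewer cells in the phase that uses a gene and less of its RNA per cell cannot be told apart. Without siNELF-B replicates 2 and 3 the counts were 8, 5, 8 and 8 in the A, B, C and E knockdowns and 9 on average. The 4 comparisons share their control arrays, and leaving out control replicate 1, 2 or 3 left 4, 4 or 2 of the 8 calls of the average. The shares of all features called were not counted in fits with arrays left out or with another model, filter or gene value. Nor were they counted for pairs of knockdowns under another scaling. Counts from such fits, here and below, therefore have no share beside them and carry no result about the named genes.

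**Figure D1:**
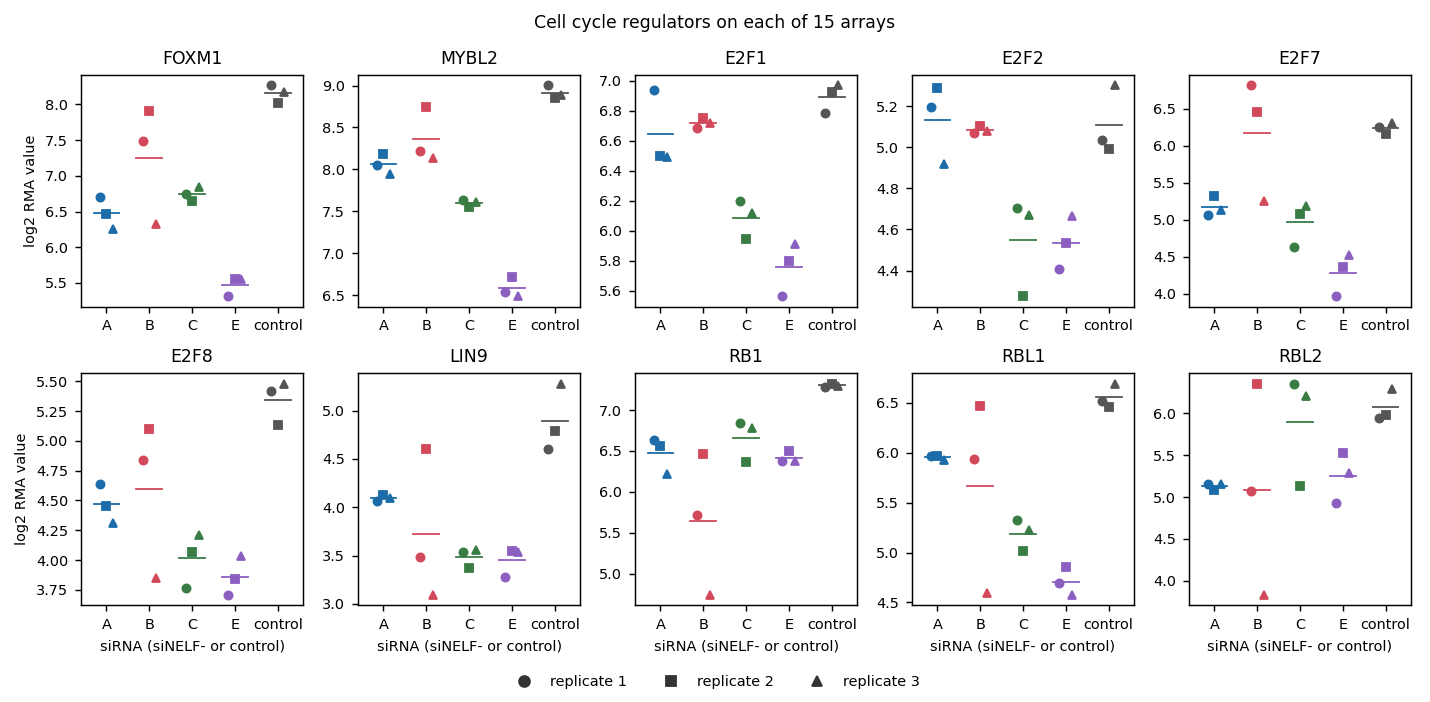
Log2 RMA values of the 10 regulators (1 panel each, with its own vertical axis) on 15 arrays, by siRNA from siNELF-A to siNELF-E and then control. Points are arrays, with the symbol giving the replicate number, and horizontal lines are group means. The siNELF-E points lie below the control points in all 10 panels, and siNELF-B replicate 2 (square) lies near or within the control points in most.

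FOXM1, the forkhead activator of mitotic genes, was below control on every knockdown array, and the change passed the test in 3 of the 4 knockdowns. FOXM1 (transcript cluster 3440598) had log2 values of 6.71, 6.468 and 6.256 on the siNELF-A arrays, 7.489, 7.91 and 6.331 on those of siNELF-B, 6.752, 6.653 and 6.847 on those of siNELF-C and 5.313, 5.555 and 5.56 on those of siNELF-E, against 8.271, 8.023 and 8.17 on the control arrays. All 12 knockdown arrays lay below the lowest control array, with the siNELF-E arrays lowest. The fall was 6.4-fold in siNELF-E (log2 change -2.68, SE 0.296, adjusted p = 0.000178), 3.2-fold in siNELF-A (-1.68, 0.00832) and, at 2.65-fold, smaller in siNELF-C (-1.40, 0.0162; limma, n = 3 arrays a group). In siNELF-B the change was -0.91 (95% interval -1.55 to -0.27) and did not pass (0.0767), but it was -1.24 and passed without siNELF-B replicate 2 (0.00305). From low to high the group means ran siNELF-E, siNELF-A, siNELF-C, siNELF-B and control. Tested directly, siNELF-E lay below siNELF-B (-1.77, adjusted p = 0.00483) and siNELF-C (-1.27, 0.0258), while its difference from siNELF-A missed the threshold (-1.0, 0.0845; 95% interval -1.64 to -0.36). The siNELF-C call of FOXM1 was lost without control replicate 1 or 3 or siNELF-C replicate 1 or 2 (adjusted p = 0.0556 to 0.0742), and the call between siNELF-E and siNELF-C without any 1 of their 6 arrays (0.0722 to 0.0929).

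MYBL2 (B-MYB), which acts on MuvB before FOXM1 does, was likewise below control on every knockdown array, with 3 of the 4 changes past the test. MYBL2 (cluster 3886223) had 8.058, 8.188 and 7.941 on the siNELF-A arrays, 8.223, 8.747 and 8.132 on those of siNELF-B, 7.637, 7.546 and 7.617 on those of siNELF-C and 6.541, 6.714 and 6.488 on those of siNELF-E, against 9.005, 8.846 and 8.882 on the control arrays. Each knockdown lay wholly below control, and the siNELF-C and siNELF-E arrays formed bands of their own. MYBL2 fell 5.03-fold in siNELF-E (log2 change -2.33, SE 0.154, adjusted p = 3.44e-06), 2.48-fold in siNELF-C (-1.31, 0.000561) and by the lesser 1.8-fold in siNELF-A (-0.85, 0.00919). In siNELF-B it measured -0.54 (95% interval -0.88 to -0.21) and did not pass (0.058), but it was -0.73 and passed without siNELF-B replicate 2 (0.000773). SiNELF-E lay below siNELF-A (-1.48, adjusted p = 0.000171), siNELF-B (-1.79, 0.000157) and siNELF-C (-1.02, 0.00215), and siNELF-C below siNELF-B (-0.77, 0.0228). The siNELF-A call of MYBL2 was lost without control replicate 1 (0.0528) or siNELF-A replicate 3 (0.0503). The call between siNELF-C and siNELF-B was lost without siNELF-B replicate 2, where the difference was -0.58 and under 1.5-fold, and without any siNELF-C array (0.0853 to 0.0902).

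LIN9, a subunit of MuvB, was below control on every knockdown array, and the change passed the test in the B, C and E knockdowns. LIN9 (cluster 2458742) had 4.063, 4.13 and 4.091 on the siNELF-A arrays, 3.487, 4.6 and 3.093 on those of siNELF-B, 3.535, 3.373 and 3.559 on those of siNELF-C and 3.274, 3.552 and 3.535 on those of siNELF-E, against 4.607, 4.786 and 5.277 on the control arrays. The groups did not overlap control, although siNELF-B replicate 2 lay just under the lowest control array. The log2 change was -1.44 in siNELF-E (SE 0.297, adjusted p = 0.0113), -1.40 in siNELF-C (0.0164) and -1.16 in siNELF-B (0.0461), and -0.80 in siNELF-A (95% interval -1.44 to -0.15) did not pass (0.185). The means of those that passed lay below 3.901, the 40th percentile of cluster means. With the median of its probe sets as the value, none of the LIN9 calls held (adjusted p = 0.0881 to 0.163). LIN9 lost its siNELF-B call without any 1 of 14 arrays, the exception being siNELF-B replicate 2. It lost its siNELF-C call without control replicate 3 (0.086), siNELF-C replicate 1 (0.0538) or 2 (0.0758), its siNELF-E call without control replicate 3 (0.0644) or siNELF-E replicate 1 (0.0555), and the call of the average without control replicate 3 (0.105). No pair of knockdowns was called apart.

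E2F1, the best studied activating E2F, fell in siNELF-C and siNELF-E cells. E2F1 (cluster 3903146) had 6.939, 6.498 and 6.494 on the siNELF-A arrays, 6.685, 6.751 and 6.716 on those of siNELF-B, 6.201, 5.943 and 6.121 on those of siNELF-C and 5.563, 5.801 and 5.909 on those of siNELF-E, against 6.784, 6.926 and 6.972 on the control arrays. The siNELF-A arrays overlapped control, the siNELF-B arrays lay just under it, and the siNELF-C and siNELF-E arrays stood clear of both. The fall was 2.2-fold in siNELF-E (log2 change -1.14, SE 0.145, adjusted p = 0.000481) and 1.75-fold in siNELF-C (-0.81, 0.00719). The changes of -0.25 in siNELF-A (95% interval -0.57 to 0.06) and -0.18 in siNELF-B (-0.49 to 0.14) did not pass (0.414 and 0.427). Tested directly, E2F1 was lower in siNELF-E than in siNELF-A (-0.89, adjusted p = 0.00374) and siNELF-B (-0.96, 0.00259), and lower in siNELF-C than in siNELF-B (-0.63, 0.0427), the last call being lost without any 1 of 11 arrays. The average change, -0.59, lay at the 1.5-fold limit, and its call was lost without control replicate 2 (0.0599) or 3 (0.0884), and fell under 1.5-fold at -0.57 without siNELF-A replicate 2 or 3, siNELF-C replicate 2 or siNELF-E replicate 1. After quantile normalization E2F1 lost its calls in siNELF-C (-0.46, 0.168) and on average (-0.28, 0.295), as it did after centring at the 75th percentile of each array (-0.46 and -0.30).

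E2F2, a second activating E2F, was not called against control. E2F2 (cluster 2401448) had 5.197, 5.287 and 4.919 on the siNELF-A arrays, 5.071, 5.103 and 5.078 on those of siNELF-B, 4.705, 4.275 and 4.67 on those of siNELF-C and 4.406, 4.532 and 4.666 on those of siNELF-E, against 5.033, 4.989 and 5.302 on the control arrays. The siNELF-A and siNELF-B arrays overlapped control, while the siNELF-C and siNELF-E arrays all lay below it. The changes of -0.56 in siNELF-C (adjusted p = 0.0439) and -0.57 in siNELF-E (0.0421) were 1.47- and 1.49-fold, just inside the 1.5-fold limit. In siNELF-A and siNELF-B they were 0.03 (95% interval -0.30 to 0.35) and -0.02 (-0.35 to 0.30). Between knockdowns, siNELF-E was called below siNELF-A (-0.60, adjusted p = 0.0406), a call lost without any 1 of 10 arrays.

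The atypical E2F7 and E2F8, which repress E2F targets without a pocket protein, were called lower in siNELF-C and siNELF-E cells. E2F7 (cluster 3463112) had 5.067, 5.317 and 5.133 on the siNELF-A arrays, 6.821, 6.457 and 5.251 on those of siNELF-B, 4.632, 5.08 and 5.192 on those of siNELF-C and 3.966, 4.363 and 4.53 on those of siNELF-E, against 6.252, 6.158 and 6.313 on the control arrays. In siNELF-B, replicates 1 and 2 lay above all control arrays and replicate 3 below them, and the other knockdowns lay wholly below control. E2F7 fell 3.88-fold in siNELF-E (log2 change -1.96, SE 0.314, adjusted p = 0.00232) and 2.42-fold in siNELF-C (-1.27, 0.0306). It measured -1.07 in siNELF-A (0.0895), a change that passed without siNELF-B replicate 3 (0.00261). The siNELF-B change of -0.06 (95% interval -0.74 to 0.62) was 0.40 without replicate 3 and 0.58 without replicates 2 and 3, neither past the threshold (0.316 and 0.115). SiNELF-E lay below siNELF-B (-1.89, adjusted p = 0.00461). E2F7 lost its siNELF-C call without any 1 of the control or siNELF-C arrays (0.0601 to 0.115) and the call of the average, -1.09, without any control array (0.0828 to 0.137).

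E2F8 (cluster 3365776) had 4.641, 4.457 and 4.315 on the siNELF-A arrays, 4.84, 5.101 and 3.85 on those of siNELF-B, 3.766, 4.068 and 4.21 on those of siNELF-C and 3.708, 3.84 and 4.033 on those of siNELF-E, against 5.422, 5.135 and 5.479 on the control arrays. No knockdown array reached the lowest control array, which siNELF-B replicate 2 came closest to. The fall was 2.8-fold in siNELF-E (log2 change -1.49, SE 0.261, adjusted p = 0.00424) and 2.52-fold in siNELF-C (-1.33, 0.0114). The changes of -0.87 in siNELF-A (0.0939) and -0.75 in siNELF-B (0.0902) did not pass, but both did without siNELF-B replicate 2 (-0.87, 0.0315, and -1.0, 0.00756). The siNELF-C call of E2F8 was lost without control replicate 3 (0.0623) or siNELF-C replicate 1 (0.0538), and that of the average, -1.11, without control replicate 1 (0.0583) or 3 (0.0737). No pair of knockdowns differed past the threshold for E2F8, and siNELF-E minus siNELF-C was -0.15.

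Among the pocket proteins, RB1, the retinoblastoma protein, was lower on all 12 knockdown arrays but was called in siNELF-B and on average only. RB1 (cluster 3489020) had 6.629, 6.56 and 6.22 on the siNELF-A arrays, 5.719, 6.464 and 4.739 on those of siNELF-B, 6.842, 6.36 and 6.777 on those of siNELF-C and 6.371, 6.499 and 6.374 on those of siNELF-E, against 7.283, 7.322 and 7.299 on the control arrays. The control arrays lay close together and above every knockdown array, while the siNELF-B arrays spread widely. RB1 fell 3.16-fold in siNELF-B (log2 change -1.66, SE 0.314, adjusted p = 0.0192) and 2.01-fold on average (-1.0, 0.0336). The SD of RB1 was 0.865 in siNELF-B, against 0.219, 0.262, 0.073 and 0.02 in siNELF-A, siNELF-C, siNELF-E and control, and the test shares 1 spread over all groups. The changes of -0.83 in siNELF-A (0.191), -0.64 in siNELF-C (0.224) and -0.89 in siNELF-E (0.144) did not pass with all arrays in the fit. Without siNELF-B replicates 2 and 3 all 3 passed at the same size (0.00271, 0.0067 and 0.00139). Although siNELF-B had the lowest mean, its differences from the other knockdowns did not pass: siNELF-B minus siNELF-A was -0.83 (0.16), siNELF-C minus siNELF-B was 1.02 (0.126) and siNELF-E minus siNELF-B was 0.77 (0.147). The siNELF-B call of RB1 was lost without any control array (0.0628 to 0.0884) or siNELF-B replicate 1 (0.0748), and that of the average was lost without any control or siNELF-E array, siNELF-A replicate 3 or siNELF-C replicate 2 or 3 (0.0502 to 0.161).

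RBL1 (p107), a pocket protein made mainly in cycling cells, was called lower in siNELF-C and siNELF-E cells. RBL1 (cluster 3904747) had 5.968, 5.963 and 5.927 on the siNELF-A arrays, 5.939, 6.467 and 4.596 on those of siNELF-B, 5.325, 5.017 and 5.222 on those of siNELF-C and 4.699, 4.854 and 4.576 on those of siNELF-E, against 6.517, 6.457 and 6.689 on the control arrays. Only siNELF-B replicate 2 reached the control range, and the siNELF-C and siNELF-E arrays lay more than 1 log2 unit below control. RBL1 fell 3.59-fold in siNELF-E (log2 change -1.84, SE 0.334, adjusted p = 0.00505) and 2.58-fold in siNELF-C (-1.37, 0.0293). It measured -0.60 in siNELF-A (0.39), which passed without siNELF-B replicate 3 (0.0185), and -0.89 in siNELF-B (0.109), which was -1.29 and passed without siNELF-B replicate 2 (0.00382). The difference between siNELF-E and siNELF-A, -1.24, missed the threshold (0.0566), and no other pair passed. RBL1 lost its siNELF-C call without any 1 of the control or siNELF-C arrays (0.0715 to 0.117) and the call of the average, -1.17, without any control array (0.0772 to 0.14).

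RBL2 (p130), the pocket protein of resting cells, was not called in any comparison. The median of its probe sets was 5.159, 5.082 and 5.157 on the siNELF-A arrays, 5.074, 6.344 and 3.833 on those of siNELF-B, 6.353, 5.13 and 6.202 on those of siNELF-C and 4.926, 5.53 and 5.287 on those of siNELF-E, against 5.947, 5.977 and 6.295 on the control arrays. The siNELF-A and siNELF-E arrays lay below control, whereas siNELF-B and siNELF-C had arrays on both sides of it. The log2 changes were -0.94, -0.99, -0.18 and -0.83 in the A, B, C and E knockdowns (adjusted p = 0.373, 0.166, 0.843 and 0.491). Among all gene medians, 2.05%, 3.2%, 4.34% and 3.32% were called lower in these comparisons and 3.91% on average. RBL2 averaged -0.73 (95% interval -1.53 to 0.06), and this passed without siNELF-B replicate 2 (-0.89, 0.0262), as did its siNELF-B change (-1.62, 0.00301).

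**Figure D2:**
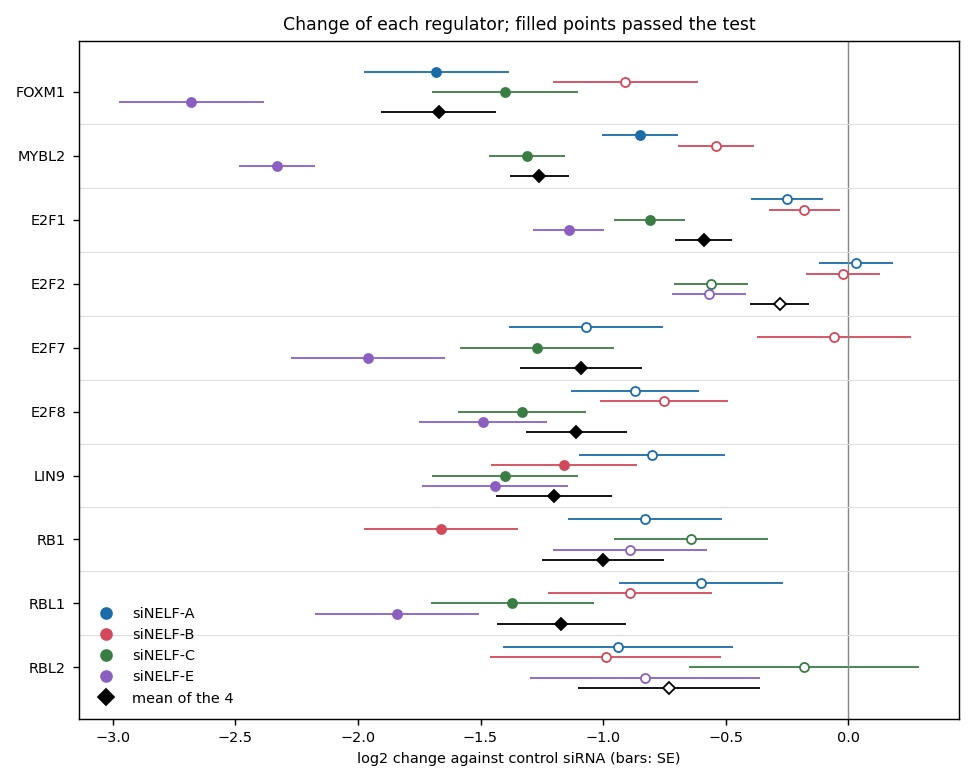
Log2 change of each regulator against control siRNA (horizontal axis), with bars of 1 SE from the limma fit. Coloured circles are the 4 knockdowns, black diamonds the mean of the 4, and filled symbols passed the test. SiNELF-E lies farthest left for FOXM1, MYBL2, E2F1, E2F7 and RBL1 and, with siNELF-C close to it, for E2F2, E2F8 and LIN9. SiNELF-B lies farthest left for RB1 and, with siNELF-A close to it, for RBL2.

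Differences between knockdowns were tested directly in 60 comparisons, 10 regulators by 6 pairs, with p-values adjusted over all features of a pair. Of these, 11 passed, 9 of them with siNELF-E as the lower group. SiNELF-E was called lower than siNELF-A for 3 regulators (1.49% of all clusters were called lower in that pair), than siNELF-B for 4 (1.16%) and than siNELF-C for 2 (1.59%). SiNELF-C was called lower than siNELF-B for 2 (0.536%). Between siNELF-B and siNELF-A and between siNELF-C and siNELF-A none passed in limma, where 4.28% and 2.87% of clusters were called in either direction. At an unadjusted limma p below 0.05, 3 regulators differed in the first of these pairs (FOXM1, E2F7 and RB1). In the second pair 4 did (MYBL2, E2F1, E2F2 and RBL1). The share of all clusters past that looser limit was not counted, so these counts carry no result about the regulators. The count of 11 was 19 without siNELF-B replicate 2, 25 without replicate 3 and 29 without both, and 7 without siNELF-C replicate 1 or 3.

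In the average of the knockdowns 18 of the 19 probe sets of FOXM1 had a negative log2 change and 14 were called lower, against 0.818% of all probe sets, with a median of -1.78. In siNELF-E 16 were called lower, against 1.35%, in siNELF-A 5, against 0.556%, in siNELF-C 3, against 0.969%, and in siNELF-B 0, against 0.157%, by limma. The siNELF-B median was -1.0 all the same. The count of 14 was 0, 2 and 0 without control replicates 1, 2 and 3, and between 7 and 9 without siNELF-A replicate 2 or 3 or any 1 siNELF-C or siNELF-E array.

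Probe set 3440607 gave the lowest change of FOXM1 and 3440635 the highest. Probe set 3440607 of FOXM1 had 4.078, 3.959 and 2.216 on the siNELF-A arrays, 5.247, 5.702 and 0.901 on those of siNELF-B, 3.097, 3.293 and 3.112 on those of siNELF-C and 2.323, 1.399 and 3.624 on those of siNELF-E, against 7.06, 6.973 and 7.062 on the control arrays. Every knockdown array lay below control by more than 1 log2 unit. Its average change was -3.79 (SE 0.756, adjusted p = 0.0339). Probe set 3440635 had 6.546, 6.65 and 6.077 on the siNELF-A arrays, 6.762, 6.336 and 8.405 on those of siNELF-B, 6.535, 7.269 and 6.759 on those of siNELF-C and 6.779, 6.499 and 6.04 on those of siNELF-E, against 5.952, 6.451 and 6.312 on the control arrays. These values overlapped control in 3 of the groups and stood above it in siNELF-C, and the average change of 0.48 did not pass (0.496). The next lowest was 3440609 at -2.07, and the next highest was 3440613 at -0.59, which had the brightest mean of the 19, 10.187.

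A probe set can also be set against the remainder of its gene, as a measure of exon usage, and limma's diffSplice did this for 195170 probe sets. This test pools the spread over all probe sets of a gene as if they were independent, although they share the same 15 arrays. Its p-values, here and for RB1 below, therefore do not measure the spread between repeats alone and can be too small. In the average of the knockdowns 3440607 was lower relative to the rest of FOXM1 (-2.26 on the log2 scale, adjusted p = 0.00038) and 3440635 higher (2.26, 0.000374), where 0.285% of all probe sets were called. Relative usage of 3440607 was lower in each knockdown, by the values -2.08, -2.31, -2.51 and -2.13 for A, B, C and E (0.0462, 0.00784, 0.00293 and 0.0442), where 0.176%, 0.623%, 0.439% and 0.119% of probe sets were called. That of 3440635 was higher in siNELF-E (2.93, 0.000301), siNELF-C (2.23, 0.013) and siNELF-B (1.94, 0.0403), and measured 1.95 in siNELF-A (0.077). Probe set 3440613 was called in siNELF-E as well (2.12, 0.0463). Without control replicate 1 the average call of 3440635 was lost (2.06, 0.071), and that of 3440607 held without each of the 15 arrays. Where in the gene these probe sets lie was not analysed here.

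**Figure D3:**
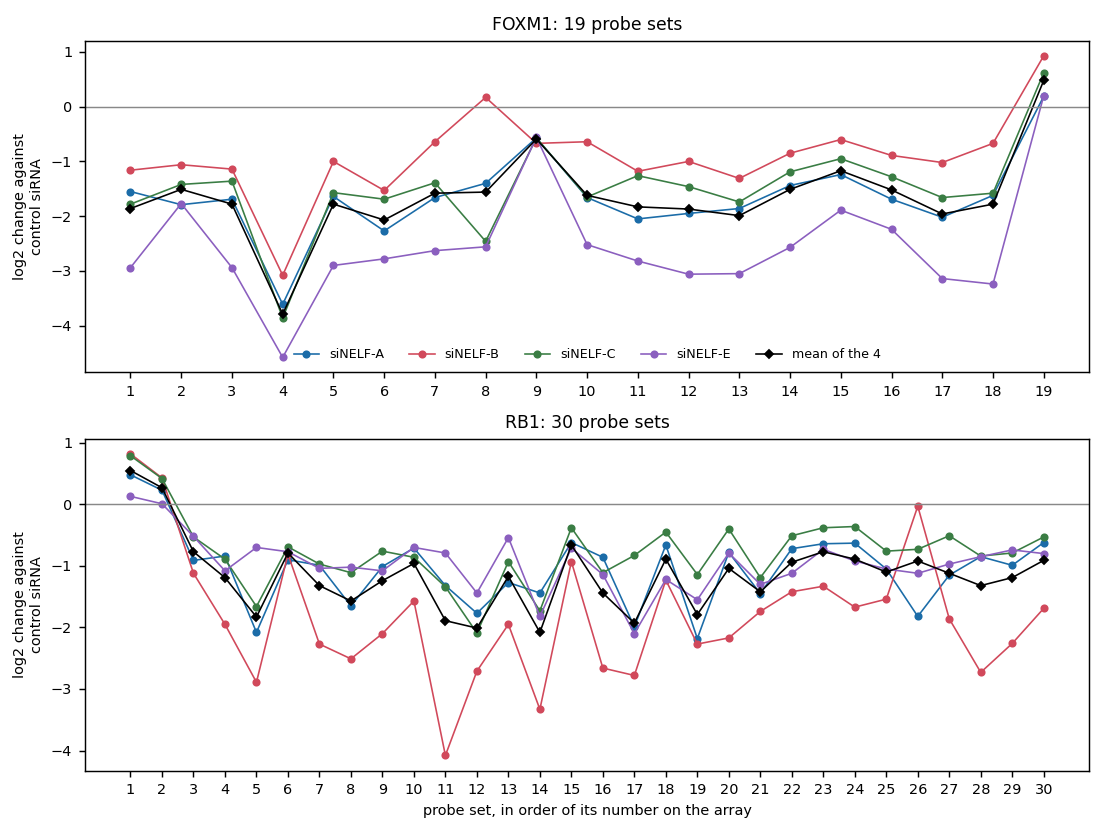
Log2 change against control siRNA of each probe set of FOXM1 (above) and RB1 (below), in order of probe set number. Coloured lines are the 4 knockdowns and black diamonds the mean of the 4. For FOXM1 the fourth point (3440607) lies lowest and the last (3440635) above 0 in every knockdown. For RB1 the first 2 points (3489023 and 3489024) lie above 0 and the rest below it on average.

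Of the 30 probe sets of RB1, 28 had a negative average change, with a median of -1.15, and 3 were called lower (3489050, 3489060 and 3489061), against 0.818% of all probe sets. In siNELF-B the median was -1.90 and 2 were called, against 0.157%. The mean of 3489050 lay below the 25th percentile of probe set means. Among the 28 RB1 probe sets at or above that percentile, 2 were called lower on average and 1 in siNELF-B. The 2 with a positive average change were 3489023 (0.55) and 3489024 (0.27), and the lowest were 3489054 (-2.08) and 3489050 (-2.01). Probe set 3489023 had 7.103, 7.319 and 7.223 on the siNELF-A arrays, 7.844, 7.391 and 7.445 on those of siNELF-B, 7.452, 7.64 and 7.497 on those of siNELF-C and 7.054, 6.827 and 6.733 on those of siNELF-E, against 7.085, 6.561 and 6.573 on the control arrays. The arrays of the first 3 knockdowns lay above control and those of siNELF-E within it. In siNELF-B the usage of 3489023 (2.76, adjusted p = 0.00597) and 3489024 (2.35, 0.0309) was higher relative to the rest of RB1 and that of 3489046 lower (-2.32, 0.0348), where 0.623% of probe sets were called. Without siNELF-B replicates 2 and 3 the average usage of 3489023 (1.81, 0.000243) and 3489024 (1.54, 0.00292) also passed, and 20 RB1 probe sets were called lower. The count of 3 was 18 and 7 without siNELF-B replicate 2 or 3 alone and 0 without any 1 control array.

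The expression pattern of FOXM1 over the 15 arrays was set against all 14219 clusters with 1 symbol, by the root mean square difference of log2 values, each centred on its own mean. The 5 closest were KCNH1, a potassium channel (0.191), CIT, the citron kinase of cytokinesis (0.193), TOP2A, a topoisomerase (0.195), MKI67, the Ki-67 antigen of dividing cells (0.233), and PRR11 (0.248), against a median of 0.979 over all clusters. Their average log2 changes were -1.61, -1.38, -1.50, -1.66 and -1.65. The closest to RB1 were RNF115, DCLRE1A, TMX3, NSL1 and RNF168, at 0.203 to 0.219 against a median of 0.639. A flat pattern would differ by 0.938 from FOXM1 and by 0.632 from RB1, close to these medians. The 5 closest to RB1 were picked for likeness on these arrays, so being lowest in siNELF-B, as RB1 was, follows largely from that choice. Their changes there ran from -1.20 for TMX3 to -1.42 for NSL1. These are descriptions over shared arrays, and any pattern of the arrays themselves enters all of them.

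Genes that E2F factors drive at the entry to S phase had negative median changes in all 4 knockdowns. Of 27 measured, 3, 6, 18 and 25 were called lower in the A, B, C and E knockdowns, against 2.83%, 4.19%, 5.3% and 4.04% of all clusters, and 22 on average, against 4.46%. With 1 array left out these counts ranged from 0 to 11, 0 to 25, 3 to 25 and 18 to 27. The ranges of A, B and C overlapped, and the range of E overlapped those of B and C. The siNELF-B count was 25 without its replicate 2, and the siNELF-C count was 3 without control replicate 3 or siNELF-C replicate 2. None was called higher, and the median was -0.60, -0.87, -1.16 and -1.78 in the 4 knockdowns. DTL, a ubiquitin ligase subunit that limits origin licensing, had the largest average change among those called (-1.57, SE 0.243, adjusted p = 0.0031), with -0.60, -1.22, -1.84 and -2.60 in the A, B, C and E knockdowns (0.346, 0.0455, 0.00517 and 0.000269). POLE2, a subunit of DNA polymerase epsilon (-1.45, 0.00783), and CCNA2, cyclin A2 (-1.38, 0.00436), followed, and POLE2 lost its call without control replicate 3 (0.076). The brightest members not called were MCM4, of the replicative helicase (-0.55, 0.0898), and PCNA, the sliding clamp (-0.73, 0.135), both of which passed without siNELF-B replicate 2 (-0.62, 0.00574, and -0.84, 0.00683). Without siNELF-B replicates 2 and 3 the counts were 15, 20, 26 and 27, and 26 on average. With each array's interquartile range in the model they were 3, 0, 12 and 27, and 18 on average, and without control replicate 1, 2 or 3 the average count was 10, 13 or 8.

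Mitotic genes that FOXM1 and B-MYB activate with MuvB also had negative median changes in all 4 knockdowns. Of 30 measured, 3, 3, 19 and 28 were called lower in the A, B, C and E knockdowns, against 2.83%, 4.19%, 5.3% and 4.04% of all clusters, and 24 on average, against 4.46%. With 1 array left out the counts ranged from 0 to 18, 0 to 28, 5 to 28 and 20 to 30. The highest siNELF-A and siNELF-B counts came without siNELF-B replicates 3 and 2, and the lowest siNELF-C count without siNELF-C replicate 2. The list had medians of -0.78, -0.88, -1.27 and -2.07 in the 4 knockdowns. None was called higher. HMMR, a spindle protein, had the largest average change (-2.20, SE 0.484, adjusted p = 0.0195), followed by CCNB2, cyclin B2 (-1.56, 0.00943), and CDC20, the activator of the anaphase-promoting complex (-1.54, 0.00196). CDC20 measured -1.11, -0.86, -1.18 and -3.02 in the A, B, C and E knockdowns (0.0489, 0.0778, 0.0268 and 5.22e-05). HMMR lost its call without any 1 control array (0.0713 to 0.132) and CCNB2 without control replicate 1 (0.0626) or 3 (0.0737). ECT2, an exchange factor of cytokinesis (-1.05, 0.0526), and CKS2, a partner of cyclin-dependent kinases (-0.68, 0.254), were the brightest not called, and passed without siNELF-B replicate 2 (0.00174 and 0.0391). Without siNELF-B replicates 2 and 3 the counts were 22, 18, 28 and 30, and 30 on average. With the interquartile range in the model they were 6, 0, 13 and 30, and 21 on average, and without control replicate 1, 2 or 3 the average count was 16, 16 or 10.

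**Figure D4:**
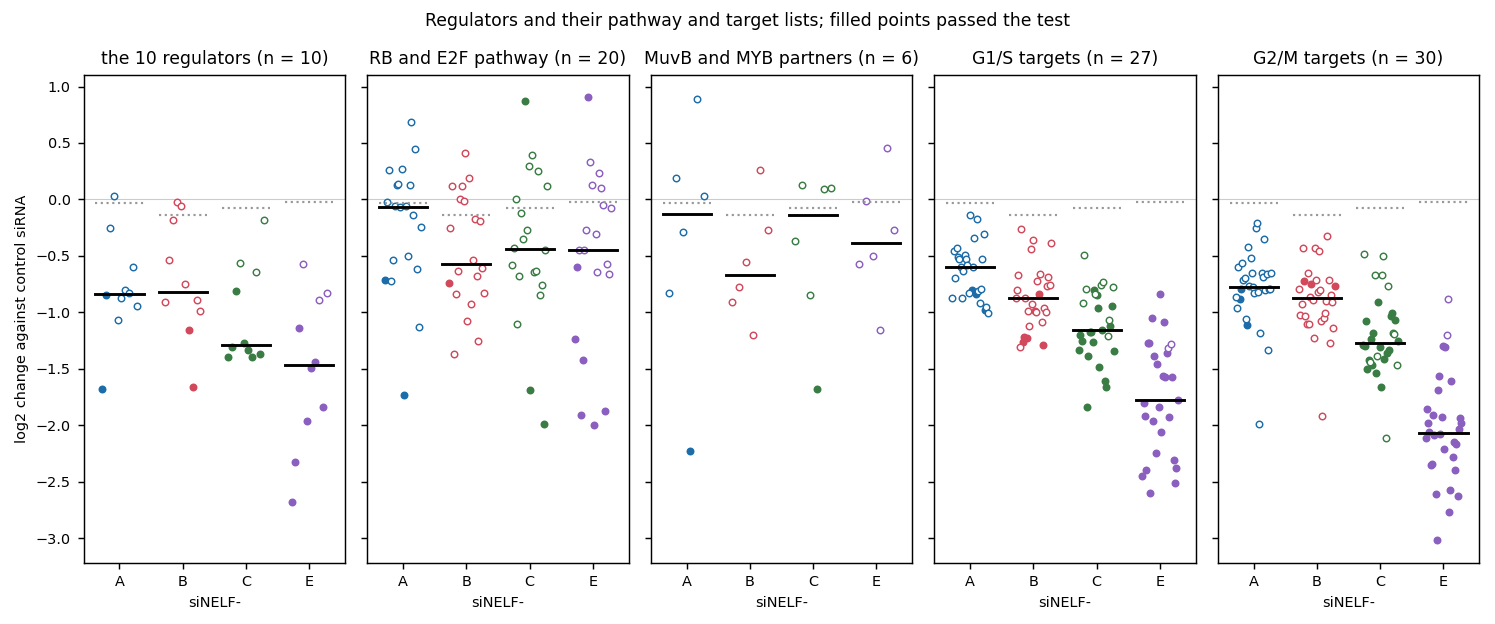
Log2 changes against control siRNA of the 10 regulators and of 4 lists of pathway, partner and target genes (1 panel each, with n measured), by knockdown. Points are genes, filled where called, solid bars are medians of the panel and dotted bars medians of all clusters. The G1/S and G2/M target panels sit below 0 as a whole and lowest in siNELF-E, while the pathway and partner panels straddle 0.

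Other genes of the RB and E2F pathway control the pocket proteins or pair with E2Fs. Of 20 measured, 2, 1, 2 and 6 were called lower in the A, B, C and E knockdowns, against 2.83%, 4.19%, 5.3% and 4.04% of all clusters, and 4 on average, against 4.46%. The siNELF-B count is near the share over all clusters, and was 10 without siNELF-B replicate 2 and 0 without any 1 control array. With 1 array left out the other counts ranged from 0 to 4 in A, 1 to 6 in C, 3 to 7 in E and 1 to 8 on average. The medians were -0.06, -0.57, -0.44 and -0.45. CDKN2C, an inhibitor of CDK4 and CDK6, fell most on average (-1.62, SE 0.264, adjusted p = 0.00461) and was called in siNELF-E (-2.0, 0.00299), siNELF-A (-1.73, 0.0136) and siNELF-C (-1.69, 0.014). CDK2, the kinase of S phase entry, averaged -0.87 (0.0139) and was called in siNELF-E (-1.42, 0.00225). SKP2, which directs the inhibitor p27 to degradation, averaged -0.84 (0.00903) and was called in siNELF-C (-1.99, 0.000167), with -0.62, -0.19 and -0.57 in the A, B and E knockdowns, and its differences between knockdowns were not tested. CDK4 (-0.31, 0.331) and TFDP2, an E2F partner (-0.26, 0.406), were the brightest not called. The 1 gene called higher was CDKN1A, the inhibitor p21, at 0.87 in siNELF-C (0.00577) and 0.91 in siNELF-E (0.00269); CDKN1A was named after its values were seen. CDKN2C lost its average call without control replicate 3 (0.0636), CDK2 without any 1 control array (0.057 to 0.095) and SKP2 without control replicate 2 (0.0516) or 3 (0.079). Under other scalings the average change of SKP2 dropped below 1.5-fold (-0.55 after quantile normalization or 75th percentile centring, -0.57 with the interquartile range in the model), as did that of CDK2 under the last 2 (-0.58 and -0.52).

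Among 6 measured partners of MuvB and of the DREAM complex, MYB was the 1 called, in siNELF-A (-2.23, adjusted p = 0.00488), in siNELF-C (-1.68, 0.018) and on average (-1.57, 0.00732), and MYB measured -1.20 in siNELF-B (0.0662) and -1.16 in siNELF-E (0.0902). MYB, a relative of B-MYB driven by the oestrogen receptor in luminal breast cells, lost its average call without control replicate 3 (0.0709). LIN37 (-0.12, 0.746) and DYRK1A, the kinase that assembles DREAM (-0.67, 0.0856), did not pass on average. DYRK1A did without siNELF-B replicate 2 (-0.76, 0.00437). The share of all clusters called lower was 2.83% in siNELF-A, 5.3% in siNELF-C and 4.46% on average, and without siNELF-B replicate 2 as many as 4 of the 6 were called in siNELF-B. The median of the 6 was -0.33 on average, where that of all clusters was -0.08.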

How the data were processed

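Per the labels, the authors deposited log2 values from robust multi-array averaging (RMA) of the core exons, made with ArrayAssist on build hg18. The software version is not given in the sources used here. They were used as deposited, in a gene-level and an exon-level table of the same 15 arrays, with 0 value columns left unused. The number of arrays limits the precision. Symbols came from the platform annotation, updated through RefSeq: 14432 clusters carried 1 symbol, 2408 several and 5171 none, and only features with 1 symbol are named. RBL2 shares its cluster with another symbol and was taken from its probe sets.

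One limma 3.58.1 model (lmFit, eBayes; R 4.3.3) with 5 group means was fitted to all 15 arrays, so all groups share 1 estimate of spread, and the 4 knockdowns share the control arrays. P-values were adjusted by Benjamini-Hochberg over all features of a contrast. For exon usage, probe sets whose mean lay under the 25th percentile were dropped, as were genes with fewer than 3 probe sets. The code was tested on simulated data.

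Named are all 10 members, per list up to 3 called genes with the largest average change and the 2 brightest not called, and the 2 lowest and 2 highest probe sets of FOXM1 and RB1. The members and lists were chosen with earlier results of these data known. No fold is given where both levels lie below the 40th percentile. Alternatives were other scalings, filters, models and gene values, and leaving out arrays. Same-numbered arrays deviated together (r over 0.1) in 3 of 30 pairs and differently numbered ones in 9 of 60, so replicate numbers were not taken as pairs.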

Additional observations from a re-analysis of the deposited data

Results flagged for a closer look

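In 11 of 60 direct tests of 1 knockdown against another, a regulator differed past the threshold in the limma contrast of the 2 knockdowns, and each is given for that reason. FOXM1 was lower in siNELF-E than in siNELF-B (log2 difference -1.77) and siNELF-C (-1.27). MYBL2 was lower in siNELF-E than in every other knockdown (-1.48 against siNELF-A, -1.79 against siNELF-B and -1.02 against siNELF-C), and lower in siNELF-C than in siNELF-B (-0.77). E2F1 was lower in siNELF-E than in siNELF-A (-0.89) and siNELF-B (-0.96), and lower in siNELF-C than in siNELF-B (-0.63). E2F2 was lower in siNELF-E than in siNELF-A (-0.60), and E2F7 lower in siNELF-E than in siNELF-B (-1.89).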

How the results depend on the processing

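Counts of called regulators depended on the control arrays and on siNELF-B, and the cause was not tested unless fewer arrays or another gene value explain it by construction. When 1 array was left out, the calls among the 10 ranged from 1 to 6 in siNELF-A, 0 to 7 in siNELF-B, 2 to 8 in siNELF-C, 6 to 8 in siNELF-E, 2 to 9 on average and 7 to 25 among the 60 pair tests. FOXM1 probe sets called ranged from 0 to 17, RB1 probe sets from 0 to 18 and usage calls from 1 to 4, which stood at 2. Pair calls (11) became 24 with quantile normalization, 21 with median centring, 25 with 75th percentile centring, 32 with each array's interquartile range in the model and 29 without siNELF-B replicates 2 and 3. The siNELF-B count (2) became 1 with 75th percentile centring, the interquartile range, trend and robust eBayes settings or probe set medians, 0 with only its own group and control in the fit, and 5 on the 1 array left. The siNELF-A count (2) became 8 with only its own group and control, or without siNELF-B replicates 2 and 3. The siNELF-C count (7) became 4 and the average (8) became 5 with probe set medians, and the average also became 5 with the interquartile range. Probe sets called for FOXM1 (14) and RB1 (3) became 1 and 0 with the interquartile range, RB1 had 20 and usage calls were 5 without siNELF-B replicates 2 and 3. With the replicate number as a block, the siNELF-B count became 1 and FOXM1 probe sets 7. The calls of LIN9 in siNELF-B (adjusted p = 0.0648), E2F7 in siNELF-C (0.0562), E2F1 between siNELF-C and siNELF-B (0.0838) and E2F2 between siNELF-E and siNELF-A (0.0768) were lost. Deviations of same-numbered arrays had r of -0.297 to 0.203, over 0.1 in 3 of 30 pairs, against 9 of 60 pairs with different numbers. With the interquartile range in the model, RB1 measured -0.50 on average, against -1.0 without it, and lost that call, as did E2F1 (-0.54). E2F7 lost its calls in siNELF-C (0.105) and on average (0.0836), and LIN9 its call in siNELF-B (-0.42, against -1.16). With probe set medians E2F7 lost the same calls (0.0916 and 0.0635), RB1 that of the average (0.115) and RBL1 that in siNELF-C (0.0657).

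None of the changes that turned sign passed, although RBL2 in siNELF-C exceeded 1.5-fold after turning. In siNELF-B, quantile normalization, median centring and 75th percentile centring gave E2F1 0.33, 0.04 and 0.29, E2F2 0.30, 0.20 and 0.44, and E2F7 0.36, 0.16 and 0.40. In siNELF-C they gave RBL2 0.19, 0.10 and 0.23, and on average LIN37 0.21, 0.14 and 0.21. Quantile normalization gave TFDP2 0.03, and 75th percentile centring gave E2F2 0.01, CDK4 0.02 and TFDP2 0.03 on average. The interquartile range as a covariate gave E2F2 0.11, E2F7 0.52 and RBL2 0.27 in siNELF-B, RBL2 0.74 in siNELF-C, and RBL2 0, TFDP2 0.04 and LIN37 0.10 on average. With 1 array left out, E2F2 ranged from -0.05 to 0.13 in siNELF-A, turning without control replicate 1 (-0.01) or 2 (-0.03) or siNELF-A replicate 1 (0) or 2 (-0.05), and reached 0.07 in siNELF-B without control replicate 3. E2F7 ranged from -0.39 to 0.40 in siNELF-B, turning without its replicate 3, RBL2 from -0.41 to 0.20 in siNELF-C, turning without its replicate 2, and LIN37 from -0.26 to 0.01 on average, turning without control replicate 1. E2F7 was 0.58 in siNELF-B without its replicates 2 and 3. The median change of all clusters on average, -0.08, became 0.05, 0.07 and 0.21 under the 3 scalings, and the share of calls that were higher, 7.27%, became 24.3%, 19% and 37.5%.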
